A study of Mus musculus with 8 samples.

Results

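The genes described here are the mouse protein-coding genes of collagen and laminin chains, chosen by symbol (Col or Lam with the number or letter of the chain), together with Hspg2, Agrn, Fn1, Nid1 and Nid2. The rule found 60 genes among the 55401 of the deposited table, of which 34133 could be given a symbol and 19200 of these were protein coding. All 60 were found in the table and all 60 passed the filter on low counts in each of the 3 comparisons. RNA immunoprecipitation (RIP) uses an antibody to pull a protein out of a lysate and recovers the RNA that comes with it. The series held 3 libraries from RIP with anti-CaMKIIβ, an antibody to a subunit of the calcium/calmodulin-dependent kinase of synapses, 3 from RIP with IgG as the control, and 2 of Input RNA taken without immunoprecipitation. The tissue of all 8 was labelled hippocampus of C57BL/6 mice, with no genotype, treatment, age or pooling given in the labels. The comparison with IgG asks which RNA the CaMKIIβ antibody enriched, and the comparisons with Input ask which RNA each antibody preparation held more of than the lysate.

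Basement membranes are thin sheets of matrix that, in the brain, lie around blood vessels, under the pia and under the choroid plexus epithelium. Laminins, trimers of an α, a β and a γ chain, polymerise at the cell surface, type IV collagen forms a second network, and nidogens and the heparan sulfate proteoglycans perlecan and agrin join the networks to each other and to cell receptors. Fibrillar collagens form the fibres of connective tissue such as the meninges and the outer walls of larger vessels. Endothelial cells, mural cells, astrocytes and fibroblasts make most of these proteins in the brain, and their long mRNAs are translated on the endoplasmic reticulum.

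Libraries held 17273957 to 28138289 counts. The tissue label was checked against marker lists, and neurons of the cerebellum were well represented in every library: 12 cerebellar markers summed to 8713 to 9838 CPM (counts relative to library size, scaled by TMM over all 8 libraries) in CaMKIIβ RIP, 8666 to 9252 in IgG RIP and 5715 to 5738 in Input. The 12 hippocampal and telencephalic markers summed to 475 to 562, 497 to 532 and 431 to 448 CPM in the same order of groups. Itpr1, which hippocampal neurons also express, was a large part of the cerebellar sum, with means of 6510 CPM in CaMKIIβ RIP, 6223 CPM in IgG RIP and 2523 CPM in Input. Over Input, the median log2 fold change of the 12 markers was 0.11 in CaMKIIβ RIP and 0.03 in IgG RIP (-0.12 and -0.02 over all genes). The higher RIP sums therefore do not describe the list as a whole. Gabra6, a receptor subunit of cerebellar granule cells, had 4404 to 5318 counts in CaMKIIβ RIP, 4909 to 5513 in IgG RIP, and 8072 and 9743 in Input. No marker of either list was at 0 in every library of a group, and the cell types behind the matrix genes are therefore not certain. CaMKIIβ RIP replicate 2 stood apart, with a count in 19247 genes against 24865 to 31152 in the other libraries. It was at 0 counts for 5 of the 60 genes (Col28a1, Col6a4, Col6a5, Col6a6 and Col9a1), each of which had between 5 and 51 counts in every other library. A count of 0 there allows a level of up to 0.174 CPM (3 counts, counting error only).

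Sequence upstream of a RefSeq start was at hand for 43 of the 60 genes (GRCm38.p6), and the window nearest the gene start was taken. No limit was set on the distance between the starts. It was 94295 bases for Lamb3, 49344 for Col25a1, 2816 for Lama2, 1408 for Col27a1 and 804 for Col1a2. Their 250-base windows had a median GC content of 59.6%, against 52.4% over all 32851 windows of the same length. The letters GGGCGG, the core of the GC box that Sp1 family factors bind, were found on either strand in 26 of the 43 windows (60.5%, against 32.7% of all windows). The letters TATAAA were found in 5 (11.6%, against 12.4%) and CCAAT in 14 (32.6%, against 33.8%). Unlike the 43, the windows over all genes were not limited to protein-coding genes or to a single window per gene. The sets are therefore not matched, and the shares do not show a trait of matrix genes. Each motif was counted on its own, so a stretch can count for more than 1 of them, and a match describes letters, not binding. The windows below show the spread among genes that were all higher in both antibody preparations than in Input (values further on): Hspg2 had the largest difference, Lama5 the largest among laminin α chains, and Col3a1, a fibrillar collagen, is an AT-rich window of the set. Capitals mark GGGCGG, its reverse complement, or TATAAA. Each window is read 5′ to 3′ on the gene's own strand and ends just before the gene start.
Hspg2, chr4:137468553-137468768, plus strand: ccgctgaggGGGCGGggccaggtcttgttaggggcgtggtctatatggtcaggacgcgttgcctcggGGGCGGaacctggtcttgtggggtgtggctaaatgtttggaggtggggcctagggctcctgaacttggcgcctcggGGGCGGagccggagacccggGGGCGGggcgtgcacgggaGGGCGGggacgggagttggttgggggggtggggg
Lama5, chr2:180225860-180226109, minus strand: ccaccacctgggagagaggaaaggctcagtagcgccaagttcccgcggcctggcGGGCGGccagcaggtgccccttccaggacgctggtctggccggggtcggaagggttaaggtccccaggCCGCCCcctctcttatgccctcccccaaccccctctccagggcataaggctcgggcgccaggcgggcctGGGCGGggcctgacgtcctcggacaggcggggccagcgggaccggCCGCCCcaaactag
Col3a1, chr1:45311288-45311537, plus strand: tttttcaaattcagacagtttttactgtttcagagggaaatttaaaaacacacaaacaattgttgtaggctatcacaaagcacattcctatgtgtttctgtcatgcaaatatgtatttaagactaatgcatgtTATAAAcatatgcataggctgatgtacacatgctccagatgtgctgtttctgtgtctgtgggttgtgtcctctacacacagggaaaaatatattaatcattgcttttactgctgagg
The Hspg2 window of 216 bases had a GC content of 70.8% and 5 matches to GGGCGG, and the Lama5 window of 250 bases had 72.4% and 4 matches. The Col3a1 window had a GC content of 35.2%, no CG pair, no GGGCGG and 1 TATAAA.

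Together the 60 genes took 0.223% to 0.243% of the counts of the CaMKIIβ RIP libraries, 0.221% to 0.235% of those of IgG RIP and 0.129% to 0.131% of those of Input. Their summed level was 2544, 2416 and 2297 CPM in CaMKIIβ RIP replicates 1, 2 and 3, 2265, 2287 and 2474 CPM in IgG RIP, and 1184 and 1200 CPM in Input. Every RIP library of either antibody was above both Input libraries, and the libraries of the 2 antibodies overlapped. CPM are relative to each library's total, so the amount of RNA that an antibody recovered is not visible in them.

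No matrix transcript was called different between the CaMKIIβ antibody and control IgG. None of the 60 genes passed a Benjamini-Hochberg adjusted p of 0.05 in edgeR's quasi-likelihood test (0% of all 20566 genes tested were called), and their adjusted p ran between 0.982 and 0.999. DESeq2 and limma-voom also called none of the 60. The median log2 fold change of CaMKIIβ RIP over IgG RIP was 0.01, against -0.02 over all genes tested, and 31 of the 60 were above 0 (47.8% of all genes). At an unadjusted p under 0.05 there were 5 of the 60, against 721 of all genes (3.51%). They were Col10a1 (log2 fold change 1.81 ± 0.73, SE), Col2a1 (0.56 ± 0.24), Lama5 (0.42 ± 0.18), Col1a1 (0.29 ± 0.12) and Col11a1 (-0.58 ± 0.26). The libraries of the groups lay apart for Col10a1, Col1a1, Col2a1 and Col8a2, which were higher in CaMKIIβ RIP, and for Col11a1, which was lower. Of all genes, 4.58% lay apart as higher, 7.32% as lower and 11.9% in either direction.

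A missed threshold does not show equal levels, and the intervals give the size that these libraries leave room for. For 41 of the 60 genes the 95% interval lay within a 2-fold change on both sides, against 52% of all genes, and for 48 its upper end lay under a 2-fold gain. The chains of the common brain basement membrane had the following differences, none past the threshold. The log2 difference of Agrn was 0.04 (95% interval -0.18 to 0.25), that of Lamc1 -0.01 (-0.23 to 0.21) and that of Lama2 -0.00 (-0.24 to 0.23). Fn1 gave -0.04 (-0.31 to 0.23), Hspg2 0.19 (-0.09 to 0.47) and Nid1 0.07 (-0.23 to 0.36). Lama5 had 0.42 (0.02 to 0.83), the only interval of these 11 chains that left out 0 before adjustment. Lamb2 had 0.29 (-0.06 to 0.64), Nid2 0.09 (-0.41 to 0.59), Col4a1 -0.08 (-0.35 to 0.19) and Col4a2 -0.11 (-0.60 to 0.38). Scarce chains had wide intervals, such as Col9a1, whose log2 difference of -1.30 had an interval of -4.20 to 1.61.
Col10a1, the collagen of hypertrophic cartilage, had the largest log2 difference between the antibodies. It stood at 1.20, 2.90 and 3.18 CPM in CaMKIIβ RIP, against 0.72, 0.88 and 0.486 CPM in IgG RIP and 0.826 and 0.772 CPM in Input. All 3 CaMKIIβ RIP libraries were above the other 5, at a level of few counts and with an adjusted p of 0.982.

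Against Input, both antibody preparations held more of most basement membrane core chains, Hspg2, Lamb2, Lama5 and Fn1 foremost. In CaMKIIβ RIP 20 of the 60 genes were higher and none lower (33.3%, against 5.06% of all 22095 genes tested called higher and 3.4% called lower). In IgG RIP 33 were higher and 1 lower (55% and 1.67%, against 20.1% of all 22342 genes called higher and 18.7% called lower). The median log2 fold change of the 60 was 0.58 in CaMKIIβ RIP over Input, against -0.12 over all genes, and 0.62 in IgG RIP over Input, against -0.02 over all genes. Of the 60, 46 were above 0 in CaMKIIβ RIP (43.4% of all genes) and 50 in IgG RIP (48.7%). Both comparisons use the same 2 Input libraries, so a shift of those libraries would enter both. The labels do not say that replicates came from separate animals, and p-values then measure only the spread between these libraries, which may be technical.

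The count of called genes in CaMKIIβ RIP depended on single libraries. Without CaMKIIβ RIP replicate 1 none of the 60 and none of the 21439 genes tested passed in edgeR's quasi-likelihood test, while 30 of the 60 and 4607 of all genes had an unadjusted p under 0.05. The 20 genes then all kept their sign, had unadjusted p under 0.05 and a lowest adjusted p of 0.0709. Without replicate 2, the library that stood apart, 27 of the 60 were higher and 0 lower, against 11.3% and 7.39% of all genes. Without replicate 3 there were 19, without Input replicate 1 there were 14 and without Input replicate 2 there were 10. The calls of Col15a1, Col2a1, Lama1, Lama4, Lamb1, Nid1 and Nid2 were lost without either Input library, with adjusted p between 0.0516 and 0.41, and that of Col2a1 also without CaMKIIβ RIP replicate 3 (0.0502). Agrn, Col18a1 and Lamc3 lost theirs without Input replicate 2 (0.115, 0.0945 and 0.0889).

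**Figure D1:**
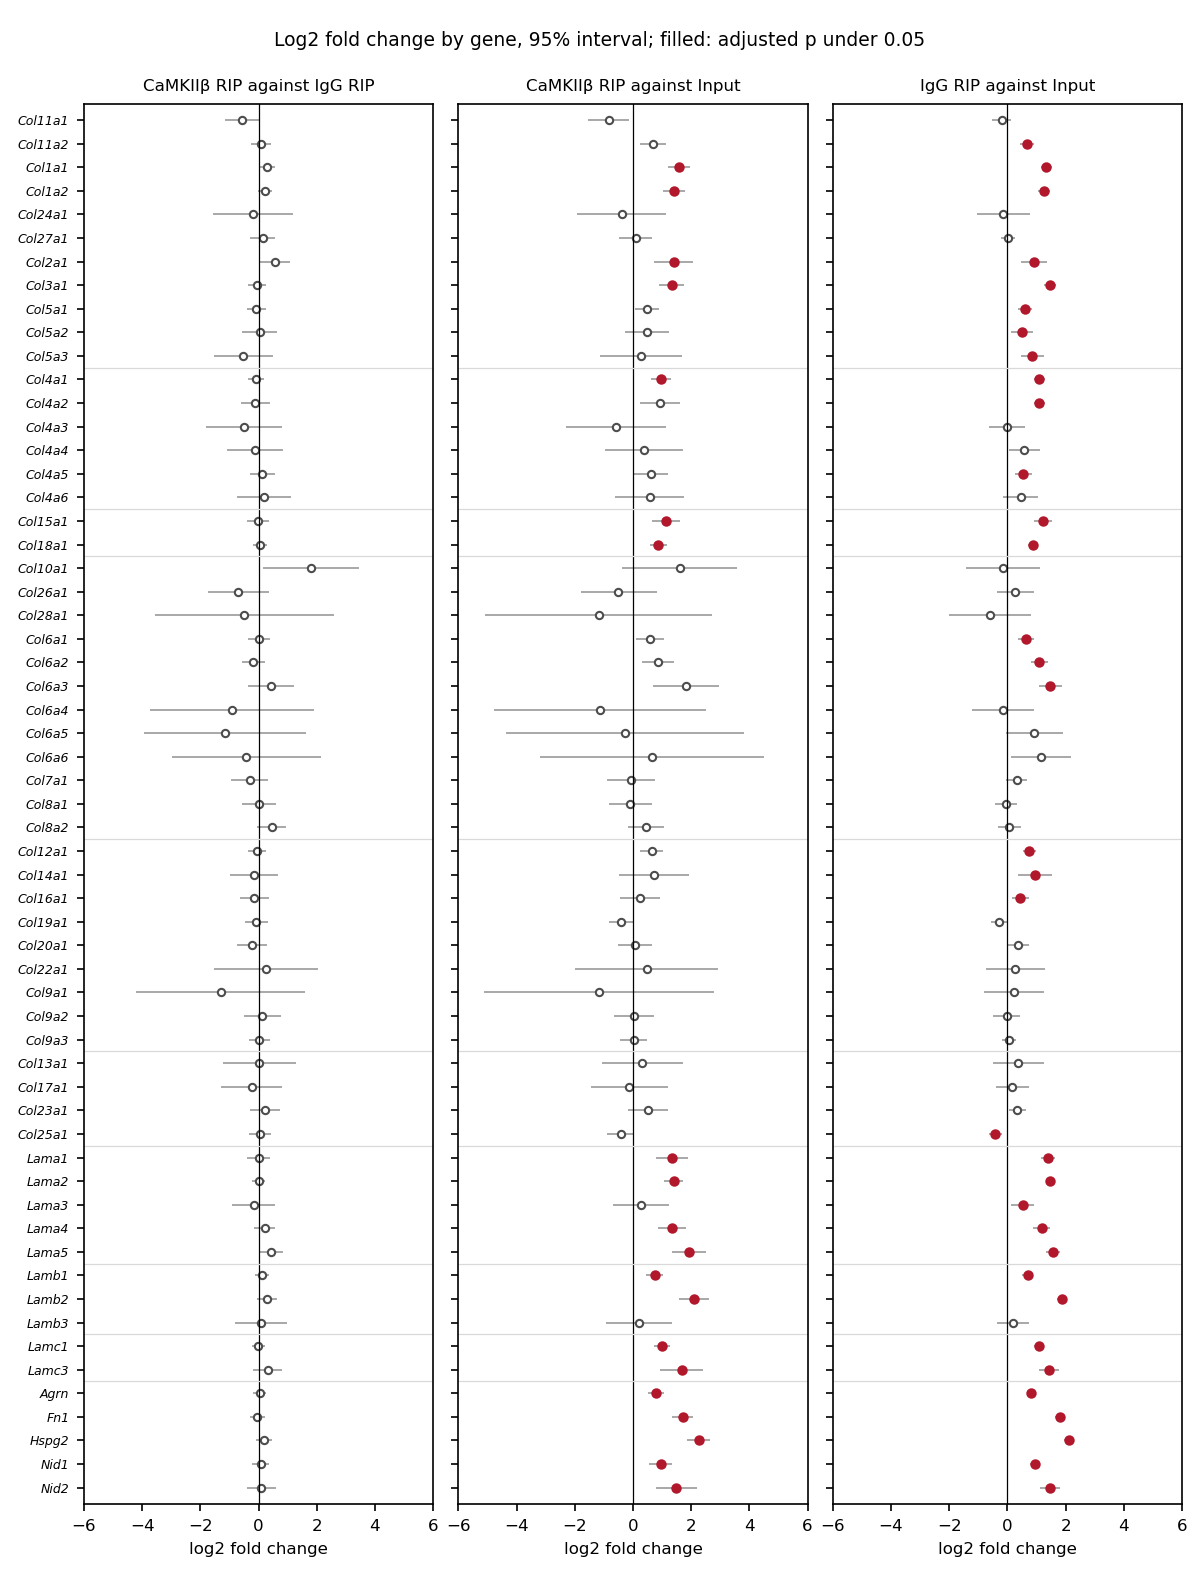
Log2 fold change (x axis) of the collagen, laminin and basement membrane genes (y axis, grouped by role, with a line between groups) in the 3 comparisons, with 95% intervals from edgeR. Filled points have an adjusted p under 0.05: 0 genes for CaMKIIβ RIP against IgG RIP, 20 for CaMKIIβ RIP against Input, all to the right of 0, and 34 for IgG RIP against Input, of which only Col25a1 lies to the left.

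All 5 of the nidogens, proteoglycans and fibronectin were higher in both preparations (against 5.06% and 20.1% of all genes called higher). Their summed level was 746 ± 61.9 CPM in CaMKIIβ RIP (SD, n = 3), 724 ± 30.3 CPM in IgG RIP (n = 3) and 291 ± 4.54 CPM in Input (n = 2). Hspg2 (ENSMUSG00000028763.18, chromosome 4, 137468769 to 137570630, GRCm38) encodes perlecan, the large heparan sulfate proteoglycan of basement membranes, and its upstream window is printed above. It stood at 180, 222 and 162 CPM in CaMKIIβ RIP, at 155, 173 and 171 CPM in IgG RIP and at 39.2 and 39.6 CPM in Input. Every RIP library was above both Input libraries, and the antibodies overlapped. The log2 fold change was 2.26 ± 0.17 (SE; 4.78-fold, adjusted p = 0.00275) in CaMKIIβ RIP and 2.13 ± 0.08 (4.38-fold, adjusted p = 1.88e-11) in IgG RIP, each over Input, the largest of the 60 in both.
Fn1 (ENSMUSG00000026193.15, chromosome 1, 71585520 to 71653200) encodes fibronectin, a matrix glycoprotein that binds integrins. Its level was 270, 215 and 204 CPM in CaMKIIβ RIP, 246, 215 and 253 CPM in IgG RIP, and 70.7 and 69.8 CPM in Input. The RIP libraries again lay above Input with no overlap, by 1.71 ± 0.15 on the log2 scale (adjusted p = 0.00399) for CaMKIIβ RIP and 1.82 ± 0.08 (8.18e-11) for IgG RIP.
Agrn, which encodes agrin, an organiser of the neuromuscular junction that is also found around brain vessels, had the highest level of the 60 per kilobase of exon in each group and changed less. It had 253, 214 and 230 CPM in CaMKIIβ RIP, 222, 221 and 242 CPM in IgG RIP, and 140 and 131 CPM in Input. The antibodies overlapped, and every RIP library was above both Input libraries. The log2 fold changes over Input were 0.78 ± 0.12 (adjusted p = 0.0132) in CaMKIIβ RIP and 0.81 ± 0.07 (8.61e-08) in IgG RIP.
The nidogens, which bind laminin γ chains and type IV collagen, were lower in level. Nid1 had 76.0, 88.5 and 64.3 CPM in CaMKIIβ RIP, 71.6, 76.4 and 72.3 CPM in IgG RIP, and 38.5 and 40.4 CPM in Input, with log2 fold changes over Input of 0.95 ± 0.17 and 0.95 ± 0.08. Nid2 had 16.4, 25.4 and 15.7 CPM in CaMKIIβ RIP, 16.6, 17.2 and 20.6 CPM in IgG RIP, and 6.30 and 7.34 CPM in Input, with log2 fold changes of 1.49 ± 0.30 and 1.46 ± 0.16. For both, all 6 RIP libraries were above Input, with adjusted p of 0.0198 (Nid1) and 0.0286 (Nid2) for CaMKIIβ RIP. For IgG RIP they were 1.56e-07 and 1.63e-06. Nid2 shares 8.45% of its exon bases with other annotated genes, the highest share among the 60, and reads there cannot be assigned to one gene without strand.

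**Figure D2:**
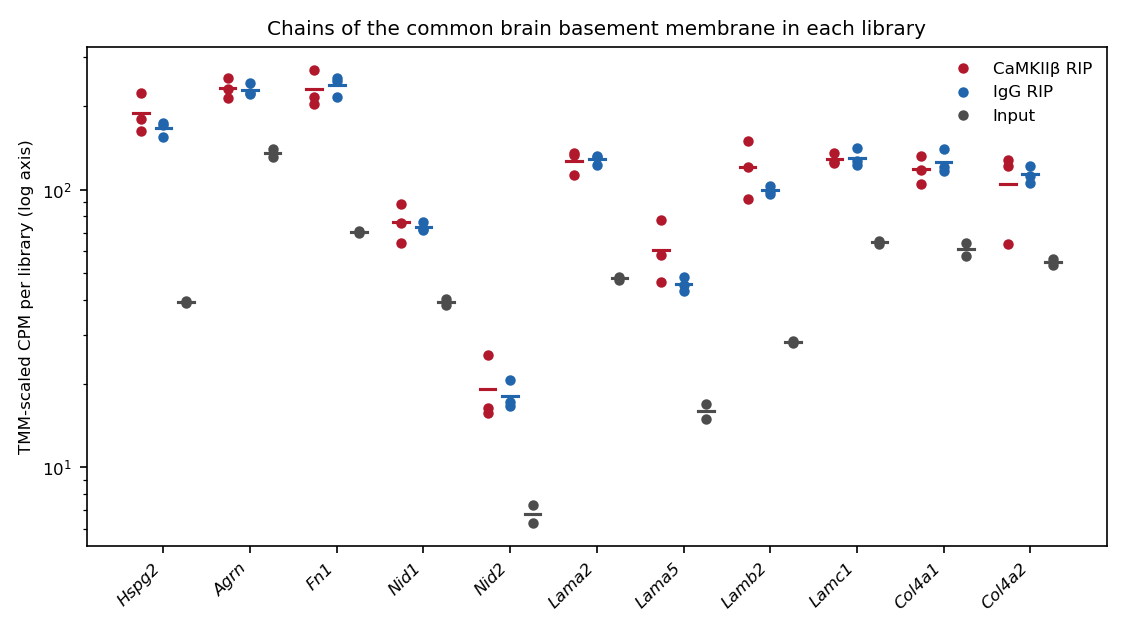
Level (y axis, TMM-scaled CPM on a log axis) of 11 chains of the common brain basement membrane (x axis) in each library, with a bar at each group's mean. The points of CaMKIIβ RIP (3) and IgG RIP (3) intermingle and lie above those of Input (2) for every chain, including Hspg2 at 162 to 222 CPM in CaMKIIβ RIP, 155 to 173 CPM in IgG RIP and 39.2 to 39.6 CPM in Input.

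Among laminin α chains 4 of 5 were higher in CaMKIIβ RIP and 5 of 5 in IgG RIP than in Input. These shares were 80% and 100%, against 5.06% and 20.1% of all genes called higher. Lama2 encodes the α chain of the laminin of muscle and of the outer, astrocyte-facing layer around brain vessels. It was the most abundant α chain, at 135, 133 and 113 CPM in CaMKIIβ RIP, 123, 131 and 132 CPM in IgG RIP, and 48.6 and 47.4 CPM in Input. These groups did not overlap with Input, with log2 fold changes of 1.41 ± 0.14 (adjusted p = 0.00475) and 1.47 ± 0.08 (5.04e-10).
Lama5 (ENSMUSG00000015647.9, chromosome 2, 180176373 to 180225859) encodes the α chain of the endothelial and widespread adult laminin, and its window is printed above. It had 58.0, 78.0 and 46.3 CPM in CaMKIIβ RIP, 43.3, 45.4 and 48.3 CPM in IgG RIP, and 16.9 and 14.9 CPM in Input. All RIP libraries were higher than Input, by 1.93 ± 0.25 (adjusted p = 0.0091) in CaMKIIβ RIP and 1.58 ± 0.11 (1.22e-08) in IgG RIP on the log2 scale.
Lama4, the other endothelial α chain, had 26.2, 30.7 and 26.0 CPM in CaMKIIβ RIP, 22.5, 27.1 and 22.2 CPM in IgG RIP, and 11.1 and 10.6 CPM in Input. Lama1, the α chain of embryonic and pial basement membranes, had 36.3, 42.4 and 27.2 CPM, 36.5, 33.2 and 36.4 CPM, and 13.3 and 14.5 CPM in the same order of groups. Both were higher in each preparation, with log2 fold changes over Input of 1.35 ± 0.20 (Lama4) and 1.35 ± 0.24 (Lama1) in CaMKIIβ RIP and of 1.19 ± 0.14 and 1.40 ± 0.12 in IgG RIP.
Lama3 and Lamb3 encode chains of epithelial laminin, and both were scarce here. Lama3 averaged 7.80 ± 3.05 CPM in CaMKIIβ RIP, 8.88 ± 1.48 CPM in IgG RIP and 6.45 ± 0.509 CPM in Input, and passed the test in IgG RIP alone (log2 fold change 0.52 ± 0.19, adjusted p = 0.0432, against 0.28 ± 0.41 and 0.806 in CaMKIIβ RIP). Whether these differ from each other is given by the comparison of the antibodies, -0.17 ± 0.33. The call in IgG RIP was lost without IgG RIP replicate 3 (adjusted p = 0.13) and without Input replicate 1 or 2 (0.128 and 0.315). Lamb3 had log2 fold changes over Input of 0.20 ± 0.49 and 0.19 ± 0.26 in CaMKIIβ RIP and IgG RIP, neither past the threshold.

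Of the 3 β chains, 2 were higher than Input in both preparations (66.7%), as were Lamc1 and Lamc3. Over all genes, 5.06% were called higher in CaMKIIβ RIP and 20.1% in IgG RIP. Lamb2 (ENSMUSG00000052911.9, chromosome 9, 108479736 to 108490530), the β chain of mature vascular and synaptic basement membranes, had 121, 149 and 92.5 CPM in CaMKIIβ RIP, 96.5, 98.6 and 103 CPM in IgG RIP, and 28.4 and 28.1 CPM in Input. Its lowest RIP library was far above both Input libraries, and the log2 fold change was 2.1 ± 0.22 (adjusted p = 0.00533) in CaMKIIβ RIP and 1.87 ± 0.08 (9.91e-11) in IgG RIP. Lamb1, the β chain that predominates in the embryo, had 94.9, 102 and 97 CPM in CaMKIIβ RIP, 89.6, 83.6 and 101 CPM in IgG RIP, and 57.3 and 60 CPM in Input.
Lamb1 was thus also higher in both preparations, by 0.74 ± 0.12 (adjusted p = 0.0161) and 0.70 ± 0.09 (7.84e-06) on the log2 scale. Per kilobase of exon, the level of Lamb2 was 2.08, 2.38 and 1.56 times that of Lamb1 in CaMKIIβ RIP, 1.76, 1.92 and 1.65 times in IgG RIP, and 0.808 and 0.764 times in Input. The order of these 2 β chains was therefore opposite in every RIP library and every Input library.
Lamc1, the γ chain of most laminins, had 135, 125 and 126 CPM in CaMKIIβ RIP, 123, 127 and 141 CPM in IgG RIP, and 63.8 and 65.4 CPM in Input. Lamc3, a γ chain found in brain and nerve, had 23.0, 34.9 and 20.3 CPM, 19.0, 21.0 and 23.7 CPM, and 9.39 and 7.04 CPM. Neither overlapped with Input, and the log2 fold changes of Lamc1 were 0.99 ± 0.12 (adjusted p = 0.00729) and 1.07 ± 0.08 (2.14e-08), those of Lamc3 1.67 ± 0.31 (0.0214) and 1.43 ± 0.16 (1.98e-06). Lamc3 shares 6.27% of its exon bases with other genes.

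Of the 6 type IV collagen genes, 1 was higher in CaMKIIβ RIP and 3 in IgG RIP. These shares of few genes were 16.7% and 50%, against 5.06% and 20.1% of all genes called higher. Col4a1 and Col4a2 encode the chains of the common network, lie head to head on chromosome 8 (11198423 to 11312826, minus strand, and 11312805 to 11449287, plus strand) and are mutated in human small vessel disease. Col4a1 had 132, 105 and 118 CPM in CaMKIIβ RIP, 117, 121 and 140 CPM in IgG RIP, and 57.7 and 64.4 CPM in Input. It was higher than Input by 0.96 ± 0.15 (adjusted p = 0.013) in CaMKIIβ RIP and 1.10 ± 0.09 (6.02e-08) in IgG RIP on the log2 scale.
Col4a2 had 128, 63.5 and 122 CPM in CaMKIIβ RIP, 106, 112 and 122 CPM in IgG RIP, and 56.1 and 53.7 CPM in Input. CaMKIIβ RIP replicate 2 was the low one. The log2 fold change of 0.93 ± 0.29 in CaMKIIβ RIP did not pass (adjusted p = 0.1), and that of 1.10 ± 0.08 in IgG RIP did (2.03e-08). Per kilobase, Col4a1 stood at 0.917, 1.46 and 0.863 times Col4a2 in CaMKIIβ RIP, 0.976, 0.954 and 1.02 times in IgG RIP, and 0.911 and 1.06 times in Input, so the pair stayed near equal in each library but CaMKIIβ RIP replicate 2.
The other 4 chains form the networks of kidney, lung and smooth muscle. Col4a5 had 16.8, 17.4 and 24.2 CPM in CaMKIIβ RIP, 17.3, 17.8 and 18.6 CPM in IgG RIP, and 12.3 and 13.1 CPM in Input, and passed in IgG RIP (0.55 ± 0.13, adjusted p = 0.00314) but not in CaMKIIβ RIP (0.62 ± 0.25, 0.19). Without Input replicate 1 its adjusted p in IgG RIP was 0.058. Col4a3, Col4a4 and Col4a6 averaged between 2.03 and 4.68 CPM in every group, with none past the threshold.
Col18a1 and Col15a1, the multiplexin collagens that carry heparan sulfate or chondroitin sulfate and release the fragments endostatin and restin, were higher in both preparations. Col18a1 had 123, 113 and 106 CPM in CaMKIIβ RIP, 103, 110 and 121 CPM in IgG RIP, and 63.3 and 62.0 CPM in Input. Col15a1 had 22.7, 20.8 and 21.1 CPM, 21.4, 24.7 and 19.3 CPM, and 10.4 and 9.18 CPM. No RIP library overlapped with Input, and log2 fold changes were 0.87 ± 0.13 (adjusted p = 0.0115) and 0.88 ± 0.08 (2.67e-07) for Col18a1, and 1.14 ± 0.21 (0.0209) and 1.21 ± 0.15 (5.09e-06) for Col15a1.

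Fibrillar collagens split by chain. In CaMKIIβ RIP 4 of 11 were higher than Input (Col1a1, Col1a2, Col2a1 and Col3a1), in IgG RIP 8 of 11. These shares were 36.4% and 72.7%, against 5.06% and 20.1% of all genes called higher. Col1a1 and Col1a2, the chains of type I collagen, are made by fibroblasts. Col1a1 had 75.5, 95.3 and 81.2 CPM in CaMKIIβ RIP, 66.7, 70.9 and 69.5 CPM in IgG RIP, and 26.9 and 29.8 CPM in Input. Col1a2 had 114, 95.8 and 117 CPM, 90.4, 96.6 and 96.7 CPM, and 37.2 and 45 CPM.
Both rose in each preparation without overlap, with log2 fold changes of 1.57 ± 0.16 (Col1a1, adjusted p = 0.00533) and 1.41 ± 0.16 (Col1a2, 0.00668) in CaMKIIβ RIP, and of 1.34 ± 0.09 (9.83e-09) and 1.25 ± 0.09 (2.05e-08) in IgG RIP. Col3a1 (chromosome 1, 45311538 to 45349706), the collagen of vessel walls whose AT-rich window is printed above, had 56.8, 46.8 and 43.9 CPM in CaMKIIβ RIP, 50.6, 50.5 and 54.2 CPM in IgG RIP, and 18.6 and 20.5 CPM in Input. Its log2 fold change was 1.33 ± 0.19 (adjusted p = 0.00984) in CaMKIIβ RIP and 1.46 ± 0.10 (1.22e-08) in IgG RIP.
Col2a1, the main collagen of cartilage, was scarce, with means of 11.1 ± 0.993, 7.62 ± 1.36 and 4.23 ± 0.153 CPM in CaMKIIβ RIP, IgG RIP and Input. It rose by 1.40 ± 0.29 (adjusted p = 0.0298) and 0.91 ± 0.22 (0.00293) on the log2 scale. Col5a1, Col5a2, Col5a3 and Col11a2 passed in IgG RIP alone, with log2 fold changes between 0.51 and 0.86 there, against 0.28 to 0.68 in CaMKIIβ RIP. Of these, Col5a2 lost the call without IgG RIP replicate 1 (adjusted p = 0.147) and without Input replicate 1 or 2 (0.204 and 0.145). Neither preparation moved Col27a1 past the threshold, at 25.3 ± 5.79, 23.2 ± 0.881 and 23.8 ± 1.97 CPM. Col11a1 averaged 6.18 ± 1.23, 9.35 ± 0.464 and 11.1 ± 0.412 CPM, and its log2 fold change of -0.84 ± 0.30 in CaMKIIβ RIP over Input did not pass (adjusted p = 0.147).

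Of the remaining 25 collagen genes, 0 passed in CaMKIIβ RIP in edgeR's test (4 at an unadjusted p under 0.05), and 6 were higher and 1 lower in IgG RIP (24% and 4%, against 20.1% and 18.7% of all genes). Among the 12 collagens of beaded filaments, anchoring fibrils and short chain networks, the type VI chains Col6a1, Col6a2 and Col6a3 passed in IgG RIP. Col6a3 had 13.2, 28.6 and 9.82 CPM in CaMKIIβ RIP, 13.0, 11.1 and 14.6 CPM in IgG RIP, and 5.32 and 4.38 CPM in Input. Its log2 fold change was 1.83 ± 0.49 in CaMKIIβ RIP (adjusted p = 0.064, with replicate 2 the high library) and 1.47 ± 0.19 (8.32e-06) in IgG RIP. Col6a1 and Col6a2 gave 0.63 ± 0.13 (adjusted p = 0.000907) and 1.09 ± 0.14 (5.93e-06) in IgG RIP, against 0.58 ± 0.21 (0.15) and 0.85 ± 0.23 (0.0705) in CaMKIIβ RIP.
Of 9 fibril-associated collagens, Col12a1, Col14a1 and Col16a1 passed in IgG RIP, with log2 fold changes of 0.75 ± 0.11 (adjusted p = 3.67e-05), 0.94 ± 0.27 (0.0117) and 0.44 ± 0.14 (0.0167). Col14a1 and Col16a1 lost the call without either Input library, with adjusted p of 0.15 and 0.168 without replicate 1 and 0.0548 and 0.0897 without replicate 2. Col12a1 had 32.1, 33.2 and 36.1 CPM in CaMKIIβ RIP, 33.6, 33.2 and 38.7 CPM in IgG RIP, and 21.8 and 21.7 CPM in Input, with 0.64 ± 0.17 in CaMKIIβ RIP over Input missing the threshold (adjusted p = 0.061). Col9a3, a chain of cartilage collagen IX, was at the Input level in each preparation: 38.4, 27.5 and 34.9 CPM in CaMKIIβ RIP, 31.9, 30.6 and 37.1 CPM in IgG RIP, and 33.8 and 32.6 CPM in Input. Its log2 differences from Input were 0.02 (95% interval -0.43 to 0.47) and 0.06 (-0.17 to 0.29).
Among the 4 transmembrane collagens, Col25a1, a neuronal collagen whose shed form is found in amyloid plaques in human brain, was the single gene of the 60 called lower. It had 28.4, 20.6 and 25.7 CPM in CaMKIIβ RIP, 26.0, 22.6 and 24 CPM in IgG RIP, and 33.9 and 33.0 CPM in Input. All 6 RIP libraries were below both Input libraries, with a log2 fold change of -0.41 ± 0.11 (adjusted p = 0.00523) in IgG RIP and -0.42 ± 0.19 (0.259) in CaMKIIβ RIP. The call in IgG RIP was lost without Input replicate 1 (adjusted p = 0.0599) and in a fit of all 8 libraries (0.0888).

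**Figure D3:**
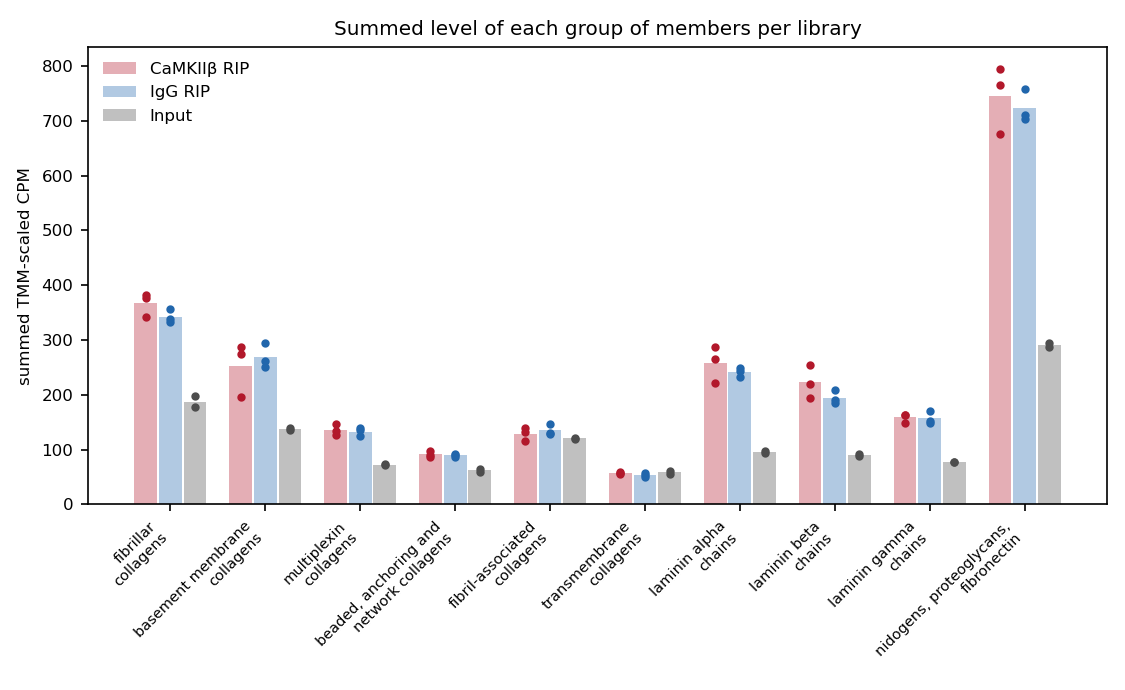
Summed TMM-scaled CPM (y axis) of the 10 groups of genes (x axis) in CaMKIIβ RIP, IgG RIP and Input, with bars at the group means and a point per library. RIP libraries of both antibodies lie well above Input for laminin α chains (221 to 288 CPM, 233 to 249 CPM and 93.6 to 96.7 CPM) and near Input for transmembrane collagens (54.9 to 59.4 CPM, 49.7 to 58.2 CPM and 55.8 to 60.9 CPM).

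The uneven differences changed the order of levels per kilobase of exon. In Input the order was led by Agrn (14.6 ± 0.671 CPM per kilobase), then Col18a1 (8.92 ± 0.134), Col9a3 (8.61 ± 0.218), Col4a2 (8.30 ± 0.261) and Col4a1 (8.18 ± 0.638), of which the last 3 overlapped with each other. In IgG RIP it was Agrn (24.6 ± 1.27), Fn1 (20.4 ± 1.75), Col4a2 (17.2 ± 1.19), Col4a1 (16.9 ± 1.68) and Lamb2 (16.3 ± 0.506), with Agrn apart from Fn1 and the others overlapping their neighbours. In CaMKIIβ RIP it was Agrn (25.0 ± 2.16), Lamb2 (19.9 ± 4.63), Fn1 (19.6 ± 3.01) and Col18a1 (16.2 ± 1.24), each overlapping the next.
Fn1 stood seventh in Input, at 6.01 ± 0.0542 CPM per kilobase, and Col9a3 fell behind it in both preparations. The ratio of Col9a3 to Fn1 was 0.446 ± 0.0677 in CaMKIIβ RIP, 0.423 ± 0.0269 in IgG RIP and 1.43 ± 0.0234 in Input. The ratio of Hspg2 to Agrn was 0.516 ± 0.121, 0.459 ± 0.0307 and 0.183 ± 0.00952, and that of Nid2 to Nid1 0.334 ± 0.0486, 0.331 ± 0.0438 and 0.232 ± 0.0171. The ratio of Col1a1 to Col1a2, chains of one trimer, was 1.49 ± 0.347, 1.38 ± 0.0192 and 1.31 ± 0.0839 in CaMKIIβ RIP, IgG RIP and Input (SD, n = 3, 3 and 2), with overlapping libraries.

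These mRNAs are long, and over the 60 the differences from Input correlated more with average level than with length, in measures that are not on equal terms. The median exon length of the 60 was 8006 bases (3095 to 16605), against 3642 bases over named protein-coding genes. Over the 60, the Spearman correlation of the log2 fold change with exon length was 0.14 in CaMKIIβ RIP over Input and 0.27 in IgG RIP over Input, and with the average log2 CPM it was 0.62 and 0.56. The average was taken over the same libraries as the fold change, so a gene higher in RIP has a higher average by construction. Exon length has no such tie. The genes share libraries, and scarce genes have noisier fold changes. Of all genes of at least 8000 bases, 14.7% of 2774 were called higher in CaMKIIβ RIP and 41.2% of 2782 in IgG RIP. After removal of the trend of fold change on exon length over all genes, the median of the 60 was 0.61 in CaMKIIβ RIP and 0.58 in IgG RIP, against 0.09 and 0.06 over all genes. Before it, the medians of the 60 were 0.58 and 0.62, against -0.12 and -0.02 over all genes, so the distance to all genes was smaller after removal.

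Among 27 collagen processing enzymes and chaperones, 2 passed as higher in CaMKIIβ RIP over Input and 8 in IgG RIP over Input, with 0 lower. These shares of 7.41% and 29.6% lay near the 5.06% and 20.1% of all genes called higher. The lysyl oxidase family enzyme Loxl1, which cross-links elastin and collagen, had a log2 fold change of 1.64 ± 0.37 (adjusted p = 0.0396) and 1.40 ± 0.21 (4.31e-05). The procollagen protease genes Adamts3 and Adamts2 gave 0.76 ± 0.16 (0.0298) and 0.77 ± 0.20 (0.0629) in CaMKIIβ RIP, against 0.69 ± 0.12 (0.000185) and 0.70 ± 0.11 (6.72e-05) with IgG.
Of 20 receptors for collagen and laminin, 7 were higher in CaMKIIβ RIP and 12 in IgG RIP (35% and 60%, against 5.06% and 20.1% of all genes), with 0 lower. Lrp4, the agrin receptor, had log2 fold changes of 1.62 ± 0.14 (adjusted p = 0.00399) and 1.66 ± 0.09 (1.15e-09). The syndecans Sdc3 (1.17 ± 0.10 and 1.10 ± 0.08) and Sdc4 (1.22 ± 0.18 and 0.90 ± 0.07) and the collagen receptor kinase Ddr1 (0.86 ± 0.11 and 0.74 ± 0.08) were higher in both. Dag1, which encodes the laminin receptor dystroglycan, gave 0.79 ± 0.15 (0.0241) and 0.96 ± 0.07 (3.05e-08).
Among 18 matrix proteases and inhibitors, CaMKIIβ RIP had 4 higher and 0 lower (22.2% and 0%, against 5.06% and 3.4% of all genes). IgG RIP had 9 higher and 2 lower (50% and 11.1%, against 20.1% and 18.7% of all genes). Mmp14, a membrane-bound matrix metalloprotease, had 1.43 ± 0.27 (adjusted p = 0.0235) and 1.43 ± 0.12 (9.27e-08). Of other brain matrix genes, CaMKIIβ RIP had 14 of 30 tested past the threshold as higher and 1 as lower (46.7% and 3.33%, against 5.06% and 3.4%). IgG RIP had 21 of 31 higher and 2 lower (67.7% and 6.45%, against 20.1% and 18.7%). They include Reln, the secreted guide of neuron positioning (1.46 ± 0.14 and 1.51 ± 0.06), the neuronal and glial proteoglycan gene Ncan (1.47 ± 0.16 and 1.54 ± 0.07) and tenascin Tnc (1.54 ± 0.20 and 1.55 ± 0.09). None of these 4 lists had a gene called between CaMKIIβ RIP and IgG RIP, where 0% of all genes were called.

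Markers of the cells that could supply matrix transcripts were called higher more often than lower, and so were those of some other cells. Of 55 markers of 5 cell types, CaMKIIβ RIP had 16 higher and 1 lower than Input (29.1% and 1.82%, against 5.06% and 3.4% of all genes). IgG RIP had 30 higher and 4 lower (54.5% and 7.27%, against 20.1% and 18.7% of all genes). Astrocyte markers made up 9 of the 16 and 11 of the 30. Outside these 5 lists, 12 oligodendrocyte lineage markers gave 5 higher and 1 lower with the CaMKIIβ antibody, 7 and 2 with IgG. The 12 hippocampal and telencephalic markers gave 2 and 0, then 7 and 2. The 12 cerebellar markers differed, with 1 and 2, then 4 and 4. The excess of higher calls was thus not particular to the 5 lists. Marker levels in bulk RNA do not separate the number of cells of a type from the RNA per cell. A difference between RIP and Input need not come from either, and its source was not tested. Of 12 endothelial markers, CaMKIIβ RIP had 3 higher and 0 lower than Input (25% and 0%), and IgG RIP 7 higher and 1 lower (58.3% and 8.33%). Their summed levels were 376 to 435 CPM, 392 to 420 CPM and 253 to 254 CPM in CaMKIIβ RIP, IgG RIP and Input. Vwf, which encodes von Willebrand factor, rose by 2.32 ± 0.17 (adjusted p = 0.00275) and 2.20 ± 0.09 (4.33e-11) on the log2 scale. Slco1a4, a transporter of brain endothelium, gave -0.86 ± 0.22 (0.056) in CaMKIIβ RIP and fell by 0.85 ± 0.14 (9.91e-05) in IgG RIP.
Of 11 mural cell markers CaMKIIβ RIP had 4 higher and 1 lower (36.4% and 9.09%), and IgG RIP 6 higher and 1 lower (54.5% and 9.09%). Over all genes the shares called higher and lower were 5.06% and 3.4%, then 20.1% and 18.7%. The mural sums were 311 to 351, 320 to 364 and 233 to 234 CPM. Myh11, the smooth muscle myosin, had a log2 fold change of 2.69 ± 0.28 (adjusted p = 0.00542) and 2.74 ± 0.17 (2.43e-09), while the pericyte marker Rgs5 had -0.81 ± 0.20 (0.0478) and -0.54 ± 0.08 (5.2e-05). For 10 fibroblast markers 0 passed in CaMKIIβ RIP, and 4 were higher and 1 lower in IgG RIP (40% and 10%). Their sums were 162 to 183, 174 to 190 and 139 to 144 CPM. Pdgfra had 0.52 ± 0.16 (0.104) and 0.75 ± 0.08 (1.46e-06). The list was mixed, with log2 fold changes of -1.95 to 0.91 in CaMKIIβ RIP and -2.10 to 0.75 in IgG RIP. Of the 10, 7 were above 0 in each preparation. Ogn went the other way, with means of 3.16, 2.05 and 9.14 CPM in CaMKIIβ RIP, IgG RIP and Input.
Of 11 choroid plexus markers 0 passed in CaMKIIβ RIP, and 2 were higher and 1 lower in IgG RIP (18.2% and 9.09%, not above the 20.1% and 18.7% of all genes), with sums of 590 to 779, 546 to 579 and 756 to 814 CPM. Ttr, the transthyretin of that epithelium, had -0.33 ± 0.16 (adjusted p = 0.289) and -0.58 ± 0.07 (2.02e-06). It was the largest part of those sums, with means of 521, 423 and 658 CPM in CaMKIIβ RIP, IgG RIP and Input. The median log2 fold change of the 11 markers was -0.01 and 0.07, against -0.12 and -0.02 over all genes. The sums therefore do not describe the list as a whole. Of 11 astrocyte markers 9 were higher in CaMKIIβ RIP and 11 in IgG RIP, with 0 lower and sums of 12032 to 13666, 12884 to 13977 and 6361 to 6473 CPM. Slc1a2, the astrocytic glutamate transporter, rose by 1.33 ± 0.11 (0.00318) and 1.5 ± 0.07 (1.26e-10). No marker of these 5 lists was at 0 in every library of a group, and the part of cell makeup in the matrix differences was not tested.

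**Figure D4:**
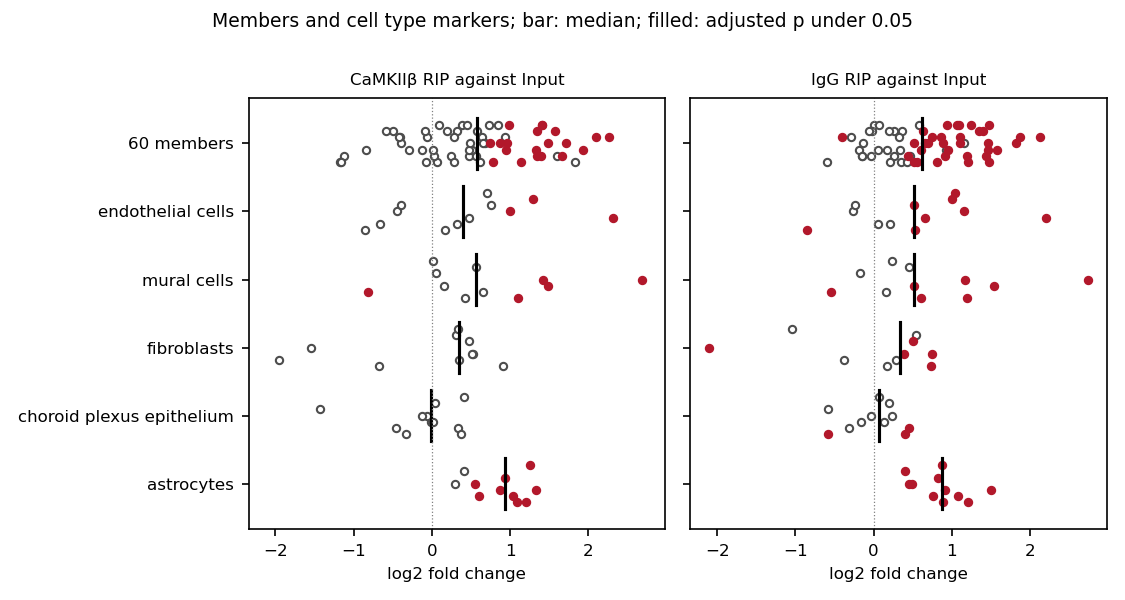
Log2 fold change over Input (x axis) of the 60 genes and of the markers of 5 cell types (y axis) in CaMKIIβ RIP (left) and IgG RIP (right), with a bar at each list's median and filled points for an adjusted p under 0.05. The medians of the 60 genes are 0.58 and 0.62, those of astrocyte markers 0.94 and 0.87, and those of choroid plexus markers -0.01 and 0.07, with endothelial and mural markers spread on both sides of 0.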

How the data were processed

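The deposited table holds raw counts per gene for 8 libraries, made, per the submitters' processing notes, with STAR 2.7.3a and featureCounts 2.0.1 after trimming by cutadapt 2.10 and Trim Galore 0.6.4, on GRCm38.p6. The annotation release and the handling of strand, duplicates and multi-position reads are not given in the sources used here. Columns were assigned by name, with 0 left unassigned. RefSeq symbols (GRCm38.p6) were joined by shared gene span (at least 0.5 of the joint span, best partners of each other, no second partner at 0.8 of it). They cover 96.1% of counts. Lamb3 (shared fraction 0.364) was joined by its end, a rule chosen after the table was seen. Of the 60 genes, 41 share no exon base with another gene.

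The 60 genes and all lists were chosen with earlier results of these data known. Named in full are the core chains and, per role, up to 3 genes past the threshold with the smallest p. For each list up to 4 genes with the smallest p were eligible. The printed windows and Col10a1, Col2a1, Col11a1, Col27a1, Col9a3, Lama3 and Lamb3 were picked after their values were seen. Of the 60, 1 gene counts in the totals and is not reported here by name.

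The main test was edgeR's quasi-likelihood test (version 4.0.16, under R 4.3.3) with robust dispersion, TMM and filterByExpr (counts of 10, totals of 15), run per comparison on the libraries of its groups, with Benjamini-Hochberg adjustment over all genes tested. The step was tested on simulated counts. CPM were computed from the deposited counts with TMM scaling over all 8 libraries. Log2 fold changes carry SE. The labels do not say that same-numbered libraries belong together, so replicate numbers were not used as a block. Deviations of same-numbered libraries from their group means had correlations of -0.0625 to 0.086. These cannot settle the pairing, since the deviations of the 2 Input libraries mirror each other. Alternatives were RLE and library size scaling, other count filters, DESeq2 1.42.0, limma-voom (limma 3.58.1), one fit of all libraries, the block, a 2-fold limit, fold changes corrected for exon length (loess, span 0.5) and each library left out. GC content of transcripts was not examined for want of their sequences.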

Additional observations from a re-analysis of the deposited data

How the results depend on the processing

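No gene of the 60 was called between CaMKIIβ RIP and IgG RIP under any of the 15 alternatives, the replicate block among them. The 2-fold limit, also among them, keeps only genes already called and so could not add any. For CaMKIIβ RIP against Input, with 20 called, the count was 0 to 27 when one library was left out, and 20 (RLE), 20 (library size alone), 24 (without a count filter), 20 (a floor of 10 counts per library within a group), 25 (DESeq2), 20 (limma-voom), 27 (all 8 libraries in one fit, 26 higher and 1 lower), 22 (replicate block) and 14 (at least a 2-fold change). For IgG RIP against Input, with 34 called, it was 28 to 38 (28 to 36 higher) with one library left out, 26 in the fit of all 8 libraries, 31 with library size alone (28 higher and 3 lower), 33 with the replicate block, and 18 with at least a 2-fold change, which removes smaller changes by construction. Col4a5, Col5a2, Col14a1, Col16a1 and Lama3 lost their call in IgG RIP with library size alone and, with Col2a1, Col5a3 and Col25a1, in the fit of all 8 libraries. Lama3 also lost it in DESeq2 (adjusted p = 0.0652) and with the replicate block (0.144). The cause of the other moves was not tested. The labels do not say whether replicate numbers pair the libraries. The result with the block is therefore not read as the strength of an effect. Library size alone moved the median of all genes by -0.17 (CaMKIIβ RIP) and -0.23 (IgG RIP) against Input, the median of the 60 to 0.41 and 0.39, and their summed Input level to 1300 CPM, against 1192 CPM with TMM. Few counts limited the precision for scarce chains, such as Col9a1, whose 95% interval between the antibodies ran from -4.20 to 1.61 on the log2 scale.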
